A study of Mus musculus with 6 samples.

Results

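A set of 10 genes that mark or build multiciliated cells was followed in RNA-seq libraries of cultured cerebellar granule cells (GCs), the small excitatory neurons of the cerebellum, after knockdown (KD) of the m6A reader YTHDF2. The 10 genes were Foxj1, Rfx2, Rfx3, Mcidas, Gmnc, Ccno, Deup1, Tmem212, Ttr and Folr1, given by name for what they are known to do. They are 10 of the 53421 genes in the table of counts, and 7 of them were among the 17214 genes with enough counts to be tested. The question was whether shYthdf2 and shCtrl cultures differed in the RNA of ciliated and choroid plexus cells that a GC preparation can carry along.

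Multiciliated cells such as ependymal cells, which line the brain ventricles, grow many motile cilia from one surface. In the textbook order, the geminin relatives Gmnc and Mcidas act with E2F factors to start the program, Ccno and Deup1 serve the mass production of centrioles, and Foxj1 with the RFX factors Rfx2 and Rfx3 turns on the genes of the motile axoneme. Tmem212 is a marker of ependymal cells, and Ttr, the carrier of thyroid hormone and retinol, and Folr1, a folate receptor, are products of the choroid plexus epithelium, the ciliated sheet that makes cerebrospinal fluid. RFX factors and Foxj1 are also used outside multiciliated cells, and RFX factors serve the genes of the single primary cilium that most cells carry.

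All 6 libraries came from GCs of C57BL/6 pups, labelled postnatal day 8, that were dissociated from cerebella after the meninges were removed, infected with a lentiviral short hairpin RNA and selected with puromycin. In 3 libraries (shYthdf2, replicates 1, 2 and 4 by their names) the hairpin was against Ythdf2, and in 3 libraries (shCtrl, replicates 1, 2 and 4) it was a control hairpin, so infection and selection were shared by both groups. The library names carry the number of 1 hairpin, shYthdf2#3, and each group rests on 1 hairpin. The libraries held 17246821 to 21546595 counts. The sample titles and genotype labels give the groups the other way round, and the library names were followed. If the titles were right, every direction given here would be turned around.

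The targeted gene was lower in the libraries named for its hairpin. Ythdf2 had 499.6, 401.3 and 499.7 normalized counts (scaled to a common library size) in shYthdf2 replicates 1, 2 and 4 and 616.7, 838.7 and 626.8 in shCtrl. The groups did not overlap, and the mean in shYthdf2 was 67.3% of that in shCtrl, with a log2 fold change of -0.57 (SE 0.16) and, by the quasi-likelihood test of edgeR, a p of 0.125 after Benjamini-Hochberg adjustment over all genes tested. The lowest p that an exact permutation test of 3 against 3 libraries allows is 0.1, which Ythdf2 reached. Without both libraries of replicate 2 the log2 fold change of Ythdf2 was -0.32. The library names were also compared with group means tabulated in the supporting data. With the groups by library name, the means of 923 of 923 genes matched to within 0.1 percent, and with the groups exchanged 0 did.

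Replicate 2 stood apart in both groups. Between replicates 1 and 4 the squared difference per gene was 3.34 times counting noise in shYthdf2 and 4.68 times in shCtrl, against 33.1 to 55.3 times between replicate 2 and either of them. Replicates 1 and 4 were therefore different libraries, though close ones. Nothing in the labels says what replicate 2 shared between the groups. The p-values measure the spread between these libraries, which may be partly technical. The sums of oligodendrocyte and microglia markers also differed between replicates. The 8 oligodendrocyte markers summed to 14772 and 15107 normalized counts in shYthdf2 replicates 1 and 4 and to 5660 and 5372 in shCtrl, but to 19103 and 19413 in replicate 2. The 7 microglia markers summed to 776 and 812 against 154 and 140 in replicates 1 and 4, and to 314 against 613 in replicate 2.

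At an adjusted p under 0.05, 0 of the 7 members tested were called, where 0.604% of all 17214 genes tested were (104 genes). Rfx3 and Folr1 passed an unadjusted p under 0.05, 2 of 7 against a background of 20.1% of genes, and both were higher in shYthdf2. DESeq2 called 1 of the 7, Rfx3, and 7.67% of all genes. Of the 10 members, Foxj1, Rfx3 and Folr1 were higher without overlap between the groups and Ccno was lower without overlap. Among the 7 tested these were 3, against 26.0% of all genes tested. The median log2 fold change of the 7 was 0.17, beside 0.01 over all genes tested, with 5 above 0 and 2 below, where 50.8% of all genes were above 0. In bulk RNA, fewer cells of a type and less RNA per cell cannot be told apart.

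**Figure D1:**
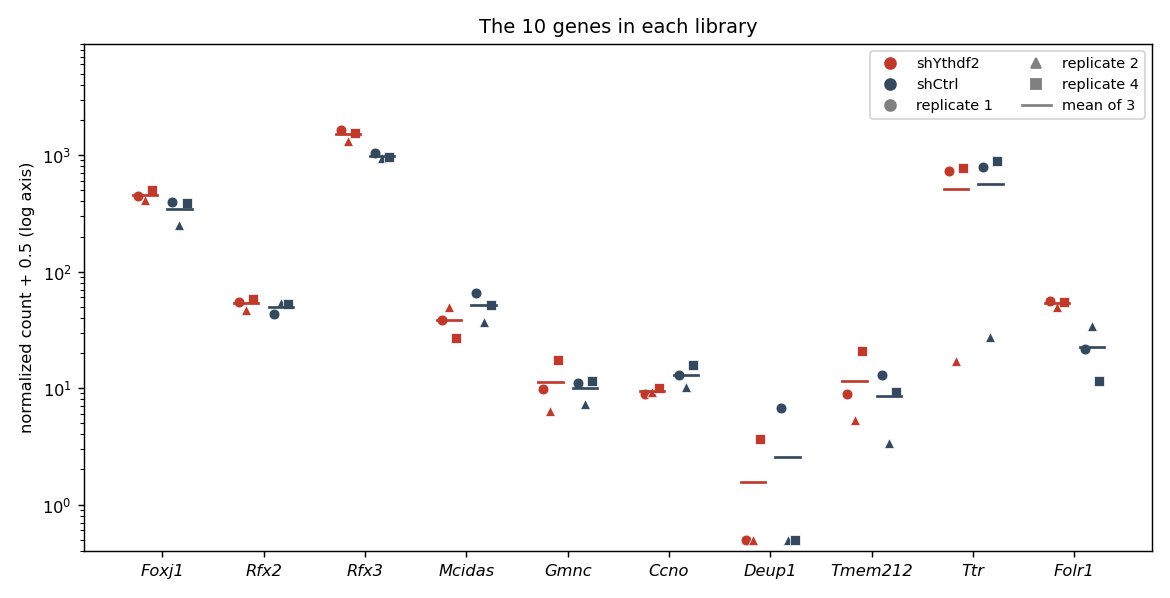
Normalized counts plus 0.5 on a log axis for the 10 genes, with 1 point per library, coloured by group and shaped by replicate, and a line at the mean of 3 libraries. Rfx3, Folr1 and Foxj1 are higher in every shYthdf2 library than in any shCtrl library, while Ttr falls in replicate 2 of both groups.

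The regulators at the top of the program were scarce. Gmnc (ENSMUSG00000068428, GRCm38 chr16:26913553-26991652, minus strand), which acts before Mcidas, had 9.39, 5.80 and 16.9 normalized counts in shYthdf2 replicates 1, 2 and 4 and 10.6, 6.76 and 10.96 in shCtrl. The groups overlapped, with replicate 2 lowest in each and the highest value in shYthdf2 replicate 4. The log2 fold change was 0.17 (SE 0.49, adjusted p = 0.875 by edgeR's quasi-likelihood test), and the exact permutation p was 0.9.

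Mcidas (ENSMUSG00000074651, chr13:112993845-113000394, plus strand), the partner of E2F factors in switching on centriole amplification, had 37.5, 49.3 and 26.5 normalized counts in shYthdf2 and 64.6, 36.7 and 51.5 in shCtrl. It was lower in shYthdf2 in replicates 1 and 4, by log2 differences of -0.77 and -0.95, and higher in replicate 2, by 0.42, so the groups overlapped. Over all 6 libraries the log2 fold change was -0.43 (SE 0.34, adjusted p = 0.520 by edgeR's quasi-likelihood test). Without both libraries of replicate 2 it was -0.87 with an adjusted p of 0.0104 by the same test, in a fit that called 52.7% of all genes tested (9186 of 17422), since it takes its spread from replicates 1 and 4 alone.

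Ccno (ENSMUSG00000042417, chr13:112987802-112990777, plus strand), a cyclin-like protein needed for centriole amplification, lies within 5000 bases of Mcidas on the same strand. It did not pass the filter, with 8, 9 and 9 reads in shYthdf2 replicates 1, 2 and 4 and 14, 10 and 14 in shCtrl. After scaling, every shYthdf2 library (8.34, 8.70 and 9.53) was below every shCtrl library (12.4, 9.66 and 15.3), and the exact permutation p was the smallest possible, 0.1. With no filter on low counts, its log2 fold change was -0.49 (SE 0.47, adjusted p = 0.660 by edgeR's quasi-likelihood test), and the difference did not pass the test. Both neighbours were lower in shYthdf2 replicates 1 and 4 than in the shCtrl libraries of the same numbers, and in replicate 2 the log2 difference was -0.14 for Ccno and 0.42 for Mcidas.

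Deup1 (ENSMUSG00000039977, chr9:15559864-15627933, minus strand), which builds the deuterosome where multiciliated cells make centrioles, was at the edge of detection. It had 0, 0 and 3 reads in shYthdf2 and 7, 0 and 0 in shCtrl. A count of 0 allows up to 3 reads in a library, and a difference was not detectable at this depth.

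Windows of 250 bases before the start of the genes that hold the RFX half-site are shown because RFX factors bind the X-box, and because Ccno and Mcidas are neighbours. The sequences are from RefSeq on GRCm38.p6, read 5′ to 3′ on the gene's strand, with the half-site GTTGCC, or its reverse complement GGCAAC, in capitals.
Mcidas, chr13:112993618-112993867, plus strand: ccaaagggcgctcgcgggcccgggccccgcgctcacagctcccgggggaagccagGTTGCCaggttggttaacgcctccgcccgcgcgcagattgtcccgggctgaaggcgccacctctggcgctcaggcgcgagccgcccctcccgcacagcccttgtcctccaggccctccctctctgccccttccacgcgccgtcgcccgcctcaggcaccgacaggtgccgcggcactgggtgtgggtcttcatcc
Ccno, chr13:112987552-112987801, plus strand: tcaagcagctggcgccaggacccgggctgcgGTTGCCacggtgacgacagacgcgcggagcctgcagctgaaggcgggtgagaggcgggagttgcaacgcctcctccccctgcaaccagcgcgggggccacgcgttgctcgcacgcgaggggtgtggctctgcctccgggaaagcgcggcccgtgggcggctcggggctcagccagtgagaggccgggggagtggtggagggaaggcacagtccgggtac
Rfx2, chr17:56831009-56831258, minus strand: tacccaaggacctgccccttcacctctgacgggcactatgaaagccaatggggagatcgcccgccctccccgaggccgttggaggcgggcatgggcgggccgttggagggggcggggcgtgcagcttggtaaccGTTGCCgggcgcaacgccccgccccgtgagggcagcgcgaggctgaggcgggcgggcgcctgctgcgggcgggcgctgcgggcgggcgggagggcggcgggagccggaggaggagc
Deup1, chr9:15627847-15628096, minus strand: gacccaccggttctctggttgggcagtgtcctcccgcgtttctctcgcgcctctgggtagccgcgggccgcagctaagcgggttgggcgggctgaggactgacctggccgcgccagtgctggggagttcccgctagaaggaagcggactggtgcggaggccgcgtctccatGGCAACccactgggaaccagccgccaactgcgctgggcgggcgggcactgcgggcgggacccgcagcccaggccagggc
The half-site began 195 bases before the start of Mcidas, 219 before Ccno and 116 before Rfx2, and it lay on the opposite strand at 79 bases before Deup1. RefSeq windows were searched for 7 of the 10 genes (9 windows of 250 bases before to 50 after a start). On both strands, GTTGCC was in 5 of the 9 windows, beside 12.5% of all 32851 windows. These 5 windows were of 5 genes, the fifth being Rfx3, 32 bases past the start. A strict form of the full X-box, a palindrome-like pair of half-sites of 14 letters (0.451% of all windows), was in 0 of the 9 windows. Looser forms of the X-box were not searched, and the windows shown can hold them. The forkhead site TGTTTAC (3.65%) and the E2F sites TTTCCCGC (1.07%) and TTTGGCGC (0.514%) were also in 0 of the 9 windows. No windows were at hand for Foxj1 and Folr1, and Ttr was not searched. The letters describe the sequence and do not show binding.

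Rfx3 had the smallest p of the 7 genes tested. Rfx3 (ENSMUSG00000040929, chr19:27761721-28011166, minus strand), which acts on genes of motile and primary cilia, had 1632, 1334 and 1559 normalized counts in shYthdf2 replicates 1, 2 and 4 and 1039, 950 and 966 in shCtrl. Every shYthdf2 library lay above every shCtrl library, with means of 1508 ± 156 and 985 ± 47.3 (SD, n = 3), so that shYthdf2 was at 153% of shCtrl. The difference was similar in each replicate, at 0.65, 0.49 and 0.69 on the log2 scale in replicates 1, 2 and 4. The log2 fold change was 0.61 (SE 0.11), with an unadjusted p of 0.000681 and an adjusted p of 0.0572 by edgeR's quasi-likelihood test, just above the threshold. With the replicate number as a block the adjusted p was 0.0450 by the same test, and Rfx3 was then the only member called, in a fit that called 1.35% of all genes. By DESeq2 the adjusted p was 0.000625. It was 0.0268 with no filter on low counts (1.98% of genes called), 0.00693 with a batch term for replicate 2 (22.1%) and 0.0171 without shCtrl replicate 2 (18.3%), all by edgeR's quasi-likelihood test. Rfx3 was also called without shYthdf2 replicate 2 (4.7% of genes called) and without both libraries of replicate 2, and it was not called by limma-voom (0.139%) or when any one of the other 4 libraries was left out (0.0% each). Over 15 alternatives the log2 fold change of Rfx3 stayed between 0.55 and 0.69, while its adjusted p ran up to 0.303 and passed the threshold in 7. The transcripts Gm8412 and Gm20407, which overlap Rfx3 on the other strand, had at most 3 reads in a library.

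Rfx2 (ENSMUSG00000024206, chr17:56775897-56831013, minus strand), an RFX factor of motile cilium genes, was not different between the groups beyond its error. It had 54.2, 46.4 and 58.2 normalized counts in shYthdf2 and 42.5, 53.1 and 52.6 in shCtrl. The ranges overlapped over most of their length, with the lowest value in shCtrl replicate 1. The log2 fold change was 0.10 (SE 0.23, adjusted p = 0.844 by edgeR's quasi-likelihood test). Prr22, close to Rfx2 on the other strand, had 13 to 34 reads.

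Foxj1 (ENSMUSG00000034227, chr11:116330704-116335399, minus strand), the main activator of motile axoneme genes, had 441, 410 and 503 normalized counts in shYthdf2 replicates 1, 2 and 4 and 396.4, 249.3 and 389.0 in shCtrl. The groups did not overlap, although the lowest shYthdf2 library and the highest shCtrl library were close, and shCtrl replicate 2 was well below the others. The means were 451 ± 47.2 and 345 ± 82.9 (SD, n = 3), so that shYthdf2 was at 131% of shCtrl. The log2 fold change was 0.39 (SE 0.20), with an unadjusted p of 0.0908 and an adjusted p of 0.324 by edgeR's quasi-likelihood test. The difference was largest in replicate 2, at 0.72, and smaller in replicates 1 and 4, at 0.15 and 0.37. With the replicate block the adjusted p was 0.116 by the same test. Without both libraries of replicate 2 the log2 fold change was 0.26 with an adjusted p of 0.0175 by edgeR's quasi-likelihood test (52.7% of all genes called). Without shCtrl replicate 2 alone the log2 fold change of Foxj1 was 0.20, with an adjusted p of 0.301 by the same test. Rnf157, which lies close to Foxj1 on the same strand, had 3020 to 4556 reads, and in replicates 1 and 2 it had fewer reads in shYthdf2 than in shCtrl.

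**Figure D2:**
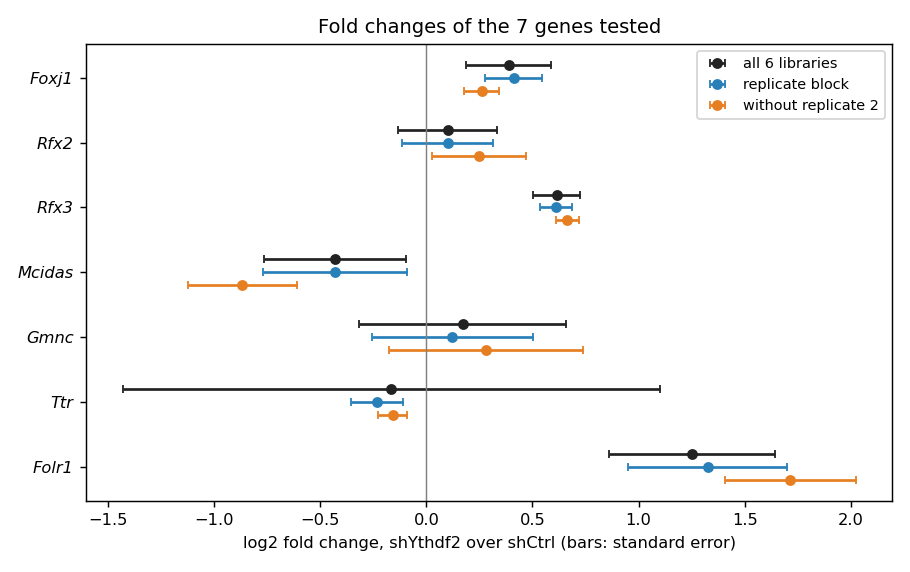
Log2 fold changes of shYthdf2 over shCtrl for the 7 genes tested, with standard errors, from all 6 libraries, with the replicate block, and without both libraries of replicate 2. Rfx3 and Folr1 lie above 0 in each fit, the bar of Ttr shrinks from an SE of 1.26 to 0.12 under the block, and Mcidas moves from -0.43 to -0.87 without replicate 2.

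Tmem212 (ENSMUSG00000043164, chr3:27866066-27896368, minus strand), the ependymal marker, did not pass the filter. It had 8, 5 and 19 reads in shYthdf2 replicates 1, 2 and 4 and 14, 3 and 8 in shCtrl. The groups overlapped, and replicate 2 was the lowest library in each, at 34.0% of the mean of replicates 1 and 4 in shYthdf2 and 27.4% in shCtrl. With no filter its log2 fold change was 0.44 (SE 0.62, adjusted p = 0.760 by edgeR's quasi-likelihood test).

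Ttr differed far more between replicates than between groups. Ttr (ENSMUSG00000061808, on chromosome 18, plus strand) had 736, 16.4 and 772 normalized counts in shYthdf2 replicates 1, 2 and 4 and 794, 27.1 and 888 in shCtrl. Replicate 2 was at 2.18% of the mean of replicates 1 and 4 in shYthdf2 and at 3.22% in shCtrl, and the highest library was 54.0 times the lowest. In each replicate shYthdf2 was somewhat lower than shCtrl, by log2 differences of -0.11, -0.70 and -0.20. The fold change over all libraries was -0.17 on the log2 scale with an SE of 1.26 (adjusted p = 0.957), and with the replicate block -0.23 with an SE of 0.12 (adjusted p = 0.255), both by edgeR's quasi-likelihood test.

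Folr1 did not follow Ttr. Folr1 (ENSMUSG00000001827, chr7:101858331-101870788, minus strand) had 55.3, 49.3 and 54.0 normalized counts in shYthdf2 replicates 1, 2 and 4 and 21.2, 33.8 and 10.96 in shCtrl. The groups did not overlap, the shYthdf2 libraries lay close together, and the shCtrl libraries were spread widely with replicate 2 the highest. The means were 52.9 ± 3.13 and 22.003 ± 11.4 (SD, n = 3), 240% of shCtrl, with a log2 fold change of 1.25 (SE 0.39), an unadjusted p of 0.0141 and an adjusted p of 0.145 by edgeR's quasi-likelihood test. The difference was 1.36 and 2.25 on the log2 scale in replicates 1 and 4 and 0.54 in replicate 2. Without shCtrl replicate 2 the log2 fold change was 1.68 with an adjusted p of 0.0202 (18.3% of all genes called). Without both libraries of replicate 2 it was 1.71 with an adjusted p of 0.000254 (52.7%), both by edgeR's quasi-likelihood test. With the replicate block the adjusted p of Folr1 was 0.0944 by the same test, and by DESeq2 it was 0.0613. Over 15 alternatives it ran up to 0.429 and passed the threshold in 3. Replicate 2 held 90.3% of the mean of the other replicates in shYthdf2 and 210% in shCtrl, against the few percent seen for Ttr. Within a library, the log2 ratio of Folr1 to Ttr reads was -3.74 and -3.84 in shYthdf2 replicates 1 and 4 and -5.22 and -6.34 in shCtrl, but 1.58 and 0.32 in replicate 2. Within each pair of same-numbered libraries the ratio was higher in shYthdf2, by 1.49, 1.26 and 2.50 on the log2 scale in replicates 1, 2 and 4. In a test added after the data were seen, the exact permutation p was 0.25 over these 3 pairs, the smallest they allow, and 0.5 when the pairing was ignored. Anapc15, on the other strand, overlaps Folr1 without sharing an exon and had 76 to 109 reads, and since the strand setting of the counting is not given in the sources used here, a part of its reads in Folr1 was not tested. Folr2, close by on the same strand, had 0 to 3 reads.

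Per length of exon, the order of the mean levels was the same at the top and bottom of both groups. In normalized counts per kilobase, Ttr was at 428 in shYthdf2 and 480 in shCtrl, Foxj1 at 172 and 131, and Rfx3 at 137 and 89.3. Next came Folr1 at 23.0 and 9.58, Mcidas at 15.9 and 21.4, and Tmem212 at 15.5 and 11.2. Rfx2 (7.24 and 6.76), Ccno (3.47 and 4.88), Gmnc (1.87 and 1.65) and Deup1 (0.320 and 0.624) were lowest. Ttr led because of replicates 1 and 4, since in replicate 2 it was below Foxj1 and Rfx3 even as plain normalized counts. Foxj1 and Rfx3 thus stood well above the multiciliated cell regulators Gmnc, Mcidas and Ccno, and above Tmem212.

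Among the 10 genes, 5 (Foxj1, Rfx3, Gmnc, Tmem212 and Ttr) had replicate 2 as the lowest library of both groups. Of the 7 members tested, 4 held this pattern, beside 28.4% of all genes tested. Replicate 2 was under 50% of the mean of replicates 1 and 4 in both groups for 3, Deup1, Tmem212 and Ttr, of which only Ttr passed the filter. This was so for 1 of the 7 members tested, beside 3.0% of all genes tested. Deup1 had 0 reads in replicate 2 of both groups, and in other libraries as well. Of the 14 other choroid plexus markers tested, 4 were under 50% in both groups and 10 were not, the abundant Otx2 and Enpp2 among the latter. Clic6 and Tmem72, chosen after their values were seen, are 2 of the 4. Clic6, a chloride channel protein of the choroid plexus, had 31.3, 2.90 and 21.2 normalized counts in shYthdf2 and 40.7, 2.90 and 35.1 in shCtrl. Tmem72 had 22.9, 3.87 and 22.2 in shYthdf2 and 25.7, 0.966 and 25.2 in shCtrl. Both were low in replicate 2 of each group, and their groups overlapped.

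**Figure D3:**
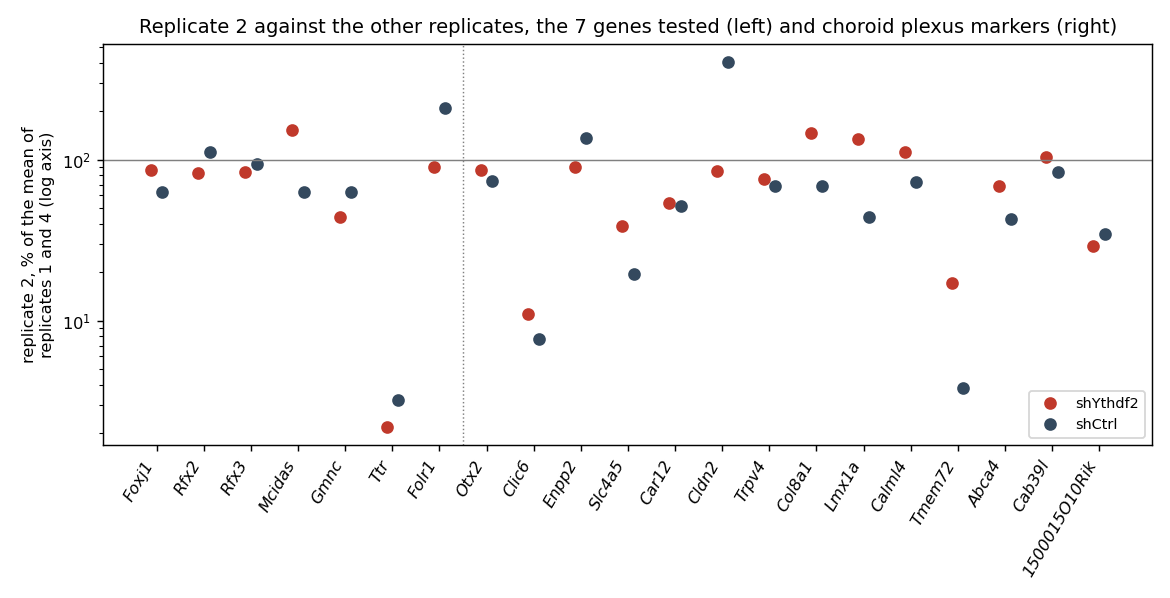
Level of replicate 2 as a percentage of the mean of replicates 1 and 4, on a log axis, in shYthdf2 and shCtrl, for the 7 genes tested (left of the dotted line) and the 14 other choroid plexus markers tested (right). Ttr, Clic6 and Tmem72 are low in both groups, and Folr1 is near or above 100%.

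The further lists were read in the same way, with 0 genes called by edgeR in any of the 5 lists given next. DESeq2, which called 7.67% of all genes, called 7 of 46 axoneme, 1 of 14 choroid plexus and 6 of 40 primary cilium genes and 0 in the other two. Of 25 other ependymal markers, 13 were tested and 12 had too few counts. In this list 8 genes were higher and 5 lower, and the median log2 fold change was 0.07. An unadjusted p under 0.05 was reached by 1 of 13 (Tm4sf1, at 0.81, which vascular cells also express), beside 20.1% of all genes. The groups did not overlap for 0 of 13, beside 26.0% of all genes. The median log2 fold change was -0.21 without shCtrl replicate 2 and 0.37 without shCtrl replicate 4, so its sign depended on single libraries. The summed level ran from 2625 to 3073 normalized counts in shYthdf2 and from 2696 to 2816 in shCtrl. Most of this sum was Cd24a, at means of 2393 ± 282 and 2432 ± 145 (SD, n = 3), a surface protein that young neurons also carry. The third most abundant gene, 1110017D15Rik, was at 53.4 ± 20.5 and 51.0 ± 31.6 (SD, n = 3). Of the whole list, 7 of 25 had under 10 reads in every library and 0 were at 0 in all of them.

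Of 25 other choroid plexus markers, 14 were tested, with 8 higher, 6 lower and a median of 0.19. At an unadjusted p under 0.05, 4 of 14 were higher and 0 lower, where 9.5% and 10.6% of all genes were. The groups did not overlap for 4, all higher in shYthdf2 (28.6%), beside 12.6% of all genes in that direction. The most abundant were Otx2, a transcription factor of the choroid plexus that granule cell progenitors also use (log2 fold change -0.33, adjusted p = 0.256), Enpp2, a secreted phospholipase also made by oligodendrocytes (0.40, adjusted p = 0.205), and Cab39l (-0.10, adjusted p = 0.752), all by edgeR's quasi-likelihood test. The median rose to 0.52 without both libraries of replicate 2 and was -0.01 without shYthdf2 replicate 1. The list's summed level overlapped between the groups, at 2437 to 2838 and 2373 to 2836 normalized counts.

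Of 28 other genes of multiciliogenesis and centriole amplification, 25 were tested, with 16 higher, 9 lower and a median of 0.15, which ran from 0.04 without shCtrl replicate 2 to 0.26 without shYthdf2 replicate 2. At an unadjusted p under 0.05, 3 were higher and 4 lower, 7 of 25 against 20.1% of all genes. The higher ones were Myb at 0.90, Plk4, the kinase that starts centriole duplication, at 0.66, and the centrin Cetn2 at 0.42 on the log2 scale. The lower ones were Ccdc14 at -0.65, Trp73, an activator of Foxj1, at -0.37, Tubb4b at -0.27 and Tfdp1 at -0.23. Genes of this list also serve dividing cells and neurons, and these 7 were named after their values were seen. The most abundant, Odf2 (-0.08, adjusted p = 0.863), Rfx7 (0.21, adjusted p = 0.304) and the centriolar satellite protein Pcm1 (0.15, adjusted p = 0.558), were not called by edgeR's quasi-likelihood test.

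The genes of the motile axoneme, the moving core of the cilium that Foxj1 and RFX factors activate, were mostly higher in shYthdf2. Of 52 listed, 46 were tested, with 40 higher, 6 lower and a median log2 fold change of 0.53. At an unadjusted p under 0.05, 15 of 46 were higher and 0 lower, where 9.5% of all genes were higher by this rule. The groups did not overlap for 16, all higher (34.8%, beside 12.6% of all genes). The list summed to 4770, 3576 and 4813 normalized counts in shYthdf2 replicates 1, 2 and 4 and to 2999, 2383 and 3040 in shCtrl, so the sums did not overlap (exact permutation p = 0.1, the smallest possible). The median difference within replicates 1, 2 and 4 was 0.50, 0.82 and 0.38. It fell to 0.27 without shCtrl replicate 2.

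Single axoneme genes show the size of these differences. Dnah7b, an inner arm dynein and among the 3 most abundant, had 436, 228 and 526 normalized counts in shYthdf2 and 181, 101 and 169 in shCtrl, a log2 fold change of 1.40 (SE 0.35, adjusted p = 0.0976, and 0.0445 with the replicate block, by edgeR's quasi-likelihood test). Replicate 2 was lowest in each group and the groups did not overlap. Dnal1, a dynein light chain that is also found in other cells, had means of 889 ± 15.9 and 738 ± 9.61 (SD, n = 3) and a log2 fold change of 0.27 (adjusted p = 0.167 by edgeR's quasi-likelihood test). Stk36 was at 341 ± 38.5 and 264 ± 42.9 (SD, n = 3), a log2 fold change of 0.37 (adjusted p = 0.277 by the same test). The highest fold change among the 46 genes tested was that of Dnah11, singled out for its value, with 249.3, 253 and 309 normalized counts against 51.3, 127 and 39.4. In shCtrl its replicate 2 was the highest library, unlike that of Dnah7b.

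**Figure D4:**
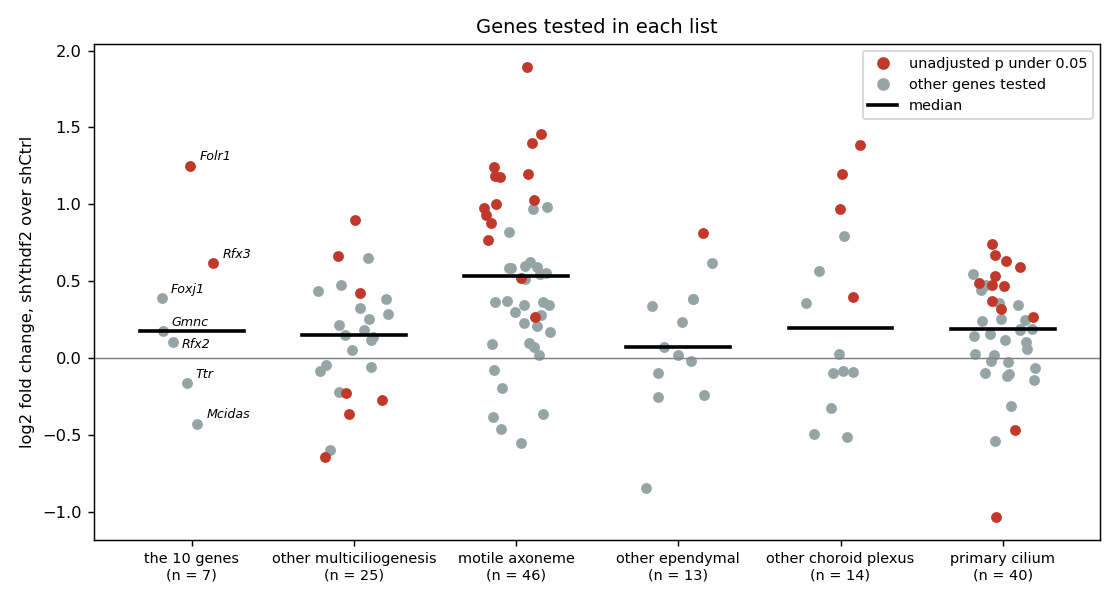
Log2 fold changes of shYthdf2 over shCtrl for the genes tested in each list, with 1 point per gene, red where the unadjusted p is under 0.05, and a line at the median. Of the lists drawn, the motile axoneme list has the highest median, 0.53, and the other ependymal markers have a median of 0.07.

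Within the axoneme list, the genes with the pattern of Ttr in replicate 2 and the remaining genes were described separately, a split made after the values were seen and given with no test. In 11 of the 46 genes (23.9%, beside 3.0% of all genes), among them Dnah6, Wdr63 and Cfap65, replicate 2 was under 50% of replicates 1 and 4 in both groups. These 11 had 7 higher and 4 lower, a median log2 fold change of 0.21, 0 with an unadjusted p under 0.05 and 0 with groups that did not overlap. Their sum was 399, 156 and 369 normalized counts in shYthdf2 and 346, 72.5 and 392.3 in shCtrl. In replicates 1 and 4 their median difference was 0.10 and 0.08, and in replicate 2, at low counts, it was 1.03. The remaining 35 had 33 higher and 2 lower and a median of 0.59, and held all 15 genes with an unadjusted p under 0.05. Their sum was 4332, 3399 and 4407 against 2623, 2300 and 2624, and their median difference was 0.52, 0.74 and 0.66 in replicates 1, 2 and 4. Genes that vary by replicate have wider errors and reach a small p less easily, so the counts of p-values in the 2 sets are not comparable. Choosing genes with a low replicate 2 in both groups also makes the groups likely to overlap. The counts of genes without overlap are therefore not comparable either.

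**Figure D5:**
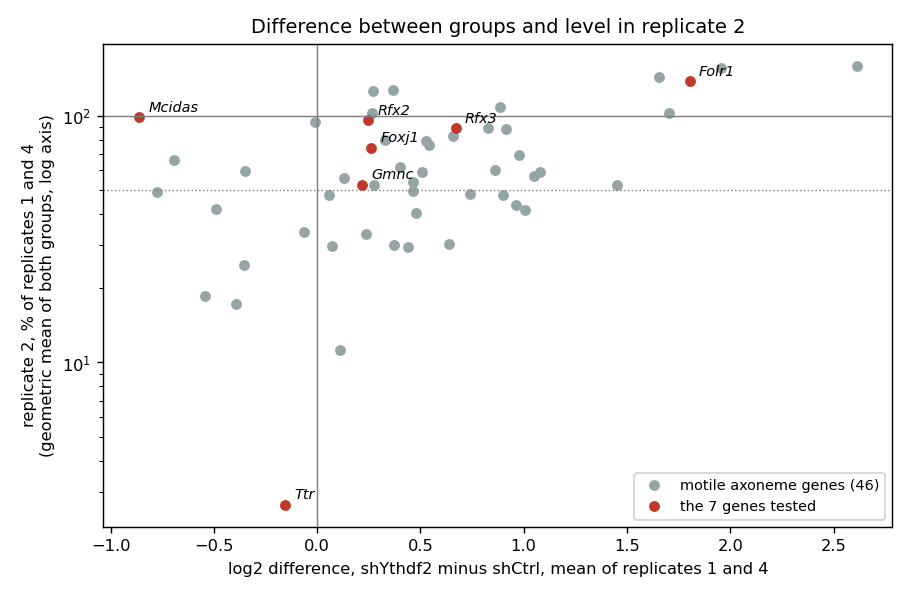
Level of replicate 2 as a percentage of replicates 1 and 4 (geometric mean of both groups, log axis) against the log2 difference of shYthdf2 minus shCtrl averaged over replicates 1 and 4, for the 46 axoneme genes tested and the 7 members tested. Both axes use replicates 1 and 4. Ttr lies far below the dotted line at 50% and Foxj1, Rfx3 and Folr1 lie above it.

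Primary cilium genes served as a contrast, since neurons and glia carry that organelle. Of 40 listed and tested, 29 were higher and 11 lower, with a median of 0.19. The groups did not overlap for 14, 35.0% against 26.0% of all genes. Of the 40, 12 were higher without overlap, where 12.6% of all genes were. At an unadjusted p under 0.05, 11 of 40 were higher and 2 lower, where 9.5% and 10.6% of all genes were. By these counts the excess of higher genes was not particular to the axoneme list. The most abundant were the kinesin subunits and partners Kifap3 (0.06), Kif3a (0.19) and Kif3b (-0.06 on the log2 scale), with adjusted p-values of 0.759, 0.367 and 0.758 by edgeR's quasi-likelihood test. The log2 ratio of Foxj1 reads to the summed primary cilium reads was -6.03, -6.09 and -5.84 in shYthdf2 and -6.09, -6.67 and -6.14 in shCtrl, with a difference of 0.31 and an exact permutation p of 0.1. Without shCtrl replicate 2 the difference was 0.13, with an exact permutation p of 0.2. Relative to the summed axoneme genes, the difference in Foxj1 was -0.23, with overlapping groups and an exact permutation p of 0.2.

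Markers of other cells that a cerebellar culture can hold were read too, with 0 genes called by edgeR in each list. An unadjusted p under 0.05 was found for 4 of 12 granule cell markers, all lower, 2 of 11 astrocyte, 1 of 8 oligodendrocyte, 1 of 5 endothelial or mural, 2 of 8 meningeal, 0 of 6 microglia and 0 of 5 progenitor markers, beside 20.1% of all genes (10.6% lower). All 12 granule cell markers were tested, with 6 higher and 6 lower and a median of 0.02. The medians were 1.27 for microglia (6 of 6 tested higher), 0.68 for meningeal fibroblasts (8 of 8 higher), 0.64 for endothelial and mural cells (5 of 5), 0.58 for oligodendrocytes (8 of 8), 0.68 for proliferating progenitors (5 of 5) and 0.27 for astrocytes and Bergmann glia (9 of 11). Without both libraries of replicate 2 the medians were 2.65 for microglia, 1.54 for oligodendrocytes and 0.65 for astrocytes, and within replicate 2 they had the opposite sign, at -1.50, -0.24 and -0.16. Meningeal markers summed to 3180, 7560 and 3306 normalized counts in shYthdf2 replicates 1, 2 and 4 and to 2372, 6029 and 2316 in shCtrl, and were highest in replicate 2, where Ttr was lowest. The part of these cells in the values of Foxj1, Rfx3, Folr1 and the axoneme genes was not tested.

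The other members were not the genes most like Foxj1. By the root-mean-square difference of centred log2 levels over the 6 libraries, the closest genes with a symbol were Fam229b (0.07), Gm9392 (0.08), Cep162 (0.08), Slf1 (0.09) and 1700012D14Rik (0.09). Fam229b had 107, 92.8 and 123 normalized counts in shYthdf2 and 84.9, 57.0 and 86.6 in shCtrl, without overlap, and Cep162, a protein of the ciliary base, had 554, 442 and 550 against 424, 278 and 414, also without overlap. Of the members, Rfx3 was closest to Foxj1 at 0.23, with 1018 genes closer, and Rfx2 followed at 0.33 with 4252 closer. Gmnc was at 0.38, Mcidas at 0.55, Folr1 at 0.81 and Ttr at 2.30. The likeness is a description over 6 libraries in which replicate 2 sets much of the variation.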

How the data were processed

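RNA-seq after YTHDF2 KD was re-analysed from a table of 6 libraries (3 shYthdf2, 3 shCtrl). By the study's methods, the authors dropped poor reads, aligned the others to GRCm38 using HISAT and TopHat2, and obtained counts per gene using HTSeq. The deposited counts are whole numbers without normalization. The submitters' processing notes also name Bowtie 0.12.2 and mm9, with no role given. The labels name a TruSeq kit and the methods a NEBNext Ultra kit, and the strand setting of the counting is not given in the sources used here. The table held 53421 genes, of which 785 were outside the annotation. Symbols and coordinates are from GENCODE on GRCm38.

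Groups follow the library names and never the values. Genes were kept by filterByExpr (minimum count 10, minimum total 15), which left 17214 genes and 99.8% to 99.9% of counts. Counts were normalized by TMM and tested by the quasi-likelihood test of edgeR 4.0.16 in R 4.3.3, with Benjamini-Hochberg adjustment over all genes tested and a threshold of 0.05. Normalized counts are at the mean library size. Log2 differences between single libraries used a pseudocount of 0.5, which understates changes of scarce genes. Single values were compared by two-sided exact permutation tests. Depth was 17246821 to 21546595 counts, which limits the precision of scarce genes, and a count of 0 allows up to 3. The fits were tested on simulated counts. These held no shift of replicate 2 shared by both groups, so that test does not cover this feature of the data.

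Same-numbered libraries deviated together from their group means (replicate 1 with a correlation of 0.252, replicate 2 with 0.360 and replicate 4 with 0.321). The group means include replicate 2, so its shift enters the deviations of replicates 1 and 4. The correlations therefore cannot show that replicates 1 and 4 are paired by number, and libraries of different numbers were not compared. Same-numbered libraries were taken as pairs by their names, and a replicate block was an alternative. The others were RLE size factors, no normalization factor, DESeq2 1.42.0, limma-voom (limma 3.58.1), no filter, at least 10 counts in every library, a batch term for replicate 2, both libraries of replicate 2 left out, and each library left out in turn. Pairwise spread was taken over genes with at least 20 reads in a pair of libraries.

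The genes named were the 10 members, Ythdf2, genes that overlap or neighbour a member, the 3 most abundant and any called genes of each cilium, ependymal and choroid plexus list, and the 5 genes most like Foxj1. Where another gene is named, the text says that its values had been seen. The members, lists and tests were chosen with earlier results of these data known. Plots were drawn with matplotlib 3.10.9.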

Additional observations from a re-analysis of the deposited data

How the results depend on the processing

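Of the 7 members tested, Foxj1, Rfx3, Mcidas and Folr1 kept the sign of their fold change under all 15 alternatives, and the remaining 3 did not. The log2 fold change of Ttr turned to 0.41 without shYthdf2 replicate 2, 0.15 without shCtrl replicate 1 and 0.30 without shCtrl replicate 4, since leaving out 1 library unbalances the low replicate 2. That of Gmnc turned to -0.31 without shYthdf2 replicate 4 and -0.02 without shCtrl replicate 2, and that of Rfx2 to -0.0045 without shCtrl replicate 1. The log2 ratio of Folr1 to Ttr turned from 1.75 to -0.039 without shYthdf2 replicate 2 and was 3.79 without shCtrl replicate 2. The lowest value of Ttr was -0.73 (without shCtrl replicate 2), and the highest of Gmnc and Rfx2 were 0.47 (without shYthdf2 replicate 2) and 0.25 (without both libraries of replicate 2). With all 6 libraries and edgeR, 104 genes and 0 members were called, and 0 genes in each of the 5 lists.

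With the replicate block, 232 genes (1.35% of those tested) and 1 member (Rfx3) were called, with 1 axoneme gene (Dnah7b) and 1 primary cilium gene. The block changed no other call among members and lists. DESeq2 called 1321 genes (7.67%), 1 member, 7 axoneme, 1 choroid plexus and 6 primary cilium genes. Limma-voom called 24 genes. With no filter 639 genes (1.98%), 1 member, 4 axoneme and 4 primary cilium genes were called. With at least 10 counts in every library, 1 primary cilium gene was called. The batch term for replicate 2 gave 3799 genes (22.1% of those tested) and 2 of 7 members (Rfx3 and Folr1). It called 8 of 25 multiciliogenesis, 17 of 46 axoneme, 1 of 13 ependymal, 3 of 14 choroid plexus and 15 of 40 primary cilium genes. Without both libraries of replicate 2, 9186 genes (52.7% of those tested) and 4 of 9 members were called. In the lists, in the same order, these were 13 of 25, 19 of 47, 1 of 14, 8 of 15 and 24 of 39. Both treatments of replicate 2 take the error largely from replicates 1 and 4, which lie close to each other.

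With each library left out in turn, 0 to 3239 genes were called, 0 to 2 members, 0 to 4 multiciliogenesis, 0 to 6 axoneme, 0 to 3 choroid plexus and 0 to 6 primary cilium genes. The counts above 0 came from leaving out replicate 2 of either group, and 0 genes were called without any other library. These fits called 829 genes (4.7%) without the shYthdf2 library and 3239 (18.3%) without the shCtrl library. RLE size factors and no normalization factor changed no call of a member. Depth limits Gmnc, Ccno, Deup1 and Tmem212, which had at most 19 reads in any library.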
